A study of Mus musculus with 18 samples.

Results

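The genes described here encode the pore-forming and auxiliary subunits of voltage-gated calcium channels, voltage-gated sodium channels and the pacemaker channels that carry the hyperpolarisation-activated current. They were taken by symbol, as every gene whose name begins with Cacna, Cacnb or Cacng, or with Scn or Hcn followed by a digit, and that had a probe set naming no other gene. That gave 38 genes of 19912 measured. For a gene with several probe sets, the one brightest on average across the 18 arrays stood for it. A group with high signal raises that average, so the choice is not free of differences between groups. The 38 comprised 4 L-type calcium channel alpha1 subunits, 3 other high-voltage alpha1 subunits, 3 T-type alpha1 subunits, 4 alpha2delta, 3 beta and 7 gamma subunits, 8 sodium channel alpha subunits, 3 sodium channel beta subunits and 3 Hcn channels. Other members of these families were not analysed here.

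The study profiled the conversion of fibroblasts into heart muscle-like cells, all from CD1 mice. Each of 6 groups had 3 arrays. The 2 reference groups were neonatal heart muscle cells, called CM for cardiomyocytes, and fibroblasts of the neonatal heart, called CF. The rest were GFP+ induced cardiomyocyte-like cells (iCMs) at 2 and at 4 weeks, and GFP- cells, labelled as failed in reprogramming, at 2 and at 4 weeks. Neither the conversion factors nor the promoter that drives GFP are named in the labels, which also give no age in days. The iCMs and the GFP- cells of a time point are told apart by GFP. The arrays of a group are biological replicates in the design text, but no label ties them to separate cultures or animals, and the spread that p-values rest on may therefore be technical.

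In working heart muscle the action potential starts with sodium entry through a channel built from a large alpha subunit and small beta subunits. L-type calcium channels, made of an alpha1 pore with an alpha2delta and a beta subunit, then let in the calcium that triggers contraction. T-type calcium channels and Hcn channels open at more negative voltages, are abundant in embryonic heart and in the sinus node, and help set spontaneous beating.

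Signals were log2 intensities, on which a difference of 1 is a 2-fold change. Levels of different genes were not compared, because each probe set has its own response. The lowest 25th percentile of any array, 6.16 log2, served as a limit under which a signal was treated as background. Of the 38 genes, 27 had all 6 group means above it and 6 (Cacna2d3, Cacng3, Scn1a, Scn3a, Scn8a and Scn9a) had all 6 below it. Over all genes measured, 15.8% had all 6 group means below it. Differences were tested with limma over all 19912 genes and called at a Benjamini-Hochberg adjusted p under 0.05.

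Cell labels were checked against marker genes. The mean of 10 cardiomyocyte genes lay at 13.03 to 13.07 log2 in CM, 11.95 to 12.08 in 4-week iCMs, 11.24 to 11.65 in 2-week iCMs, 8.17 to 8.55 over both GFP- groups and 7.33 to 7.44 in CF. The mean of 10 fibroblast genes was highest in CF, at 10.52 to 10.86. The mean of 10 macrophage genes was 11.69 to 11.96 in CF, 11.92 to 12.10 over both GFP- groups, 9.04 to 9.89 over both iCM groups and 6.40 to 6.55 in CM, with 3 of the 10 under the limit in CM only. In populations such as these, fewer cells of a type and less RNA per cell cannot be told apart. Array medians ran from 7.32 to 7.44 log2, arrays of a group correlated at 0.990 to 0.996 over all genes. Precision is limited by having 3 arrays in a group.

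Of the 38 channel genes, 19 were called in at least 1 of 10 comparisons and 19 in none, while 63.7% of all genes were called in at least 1. Between CM and CF, 12 were higher in CM and 3 lower. Over all genes measured, 19.6% were called higher in CM and 21.5% lower, and the median difference of the channel genes was 0.15 log2 beside 0.034 for all genes. Of the channel genes, 10 were called with a difference of at least 1 log2 in some comparison and a signal above the limit. These 10 are given below with every array. The share of all genes that meet both conditions was not counted, so 10 of 38 is a choice for display.

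**Figure D1:**
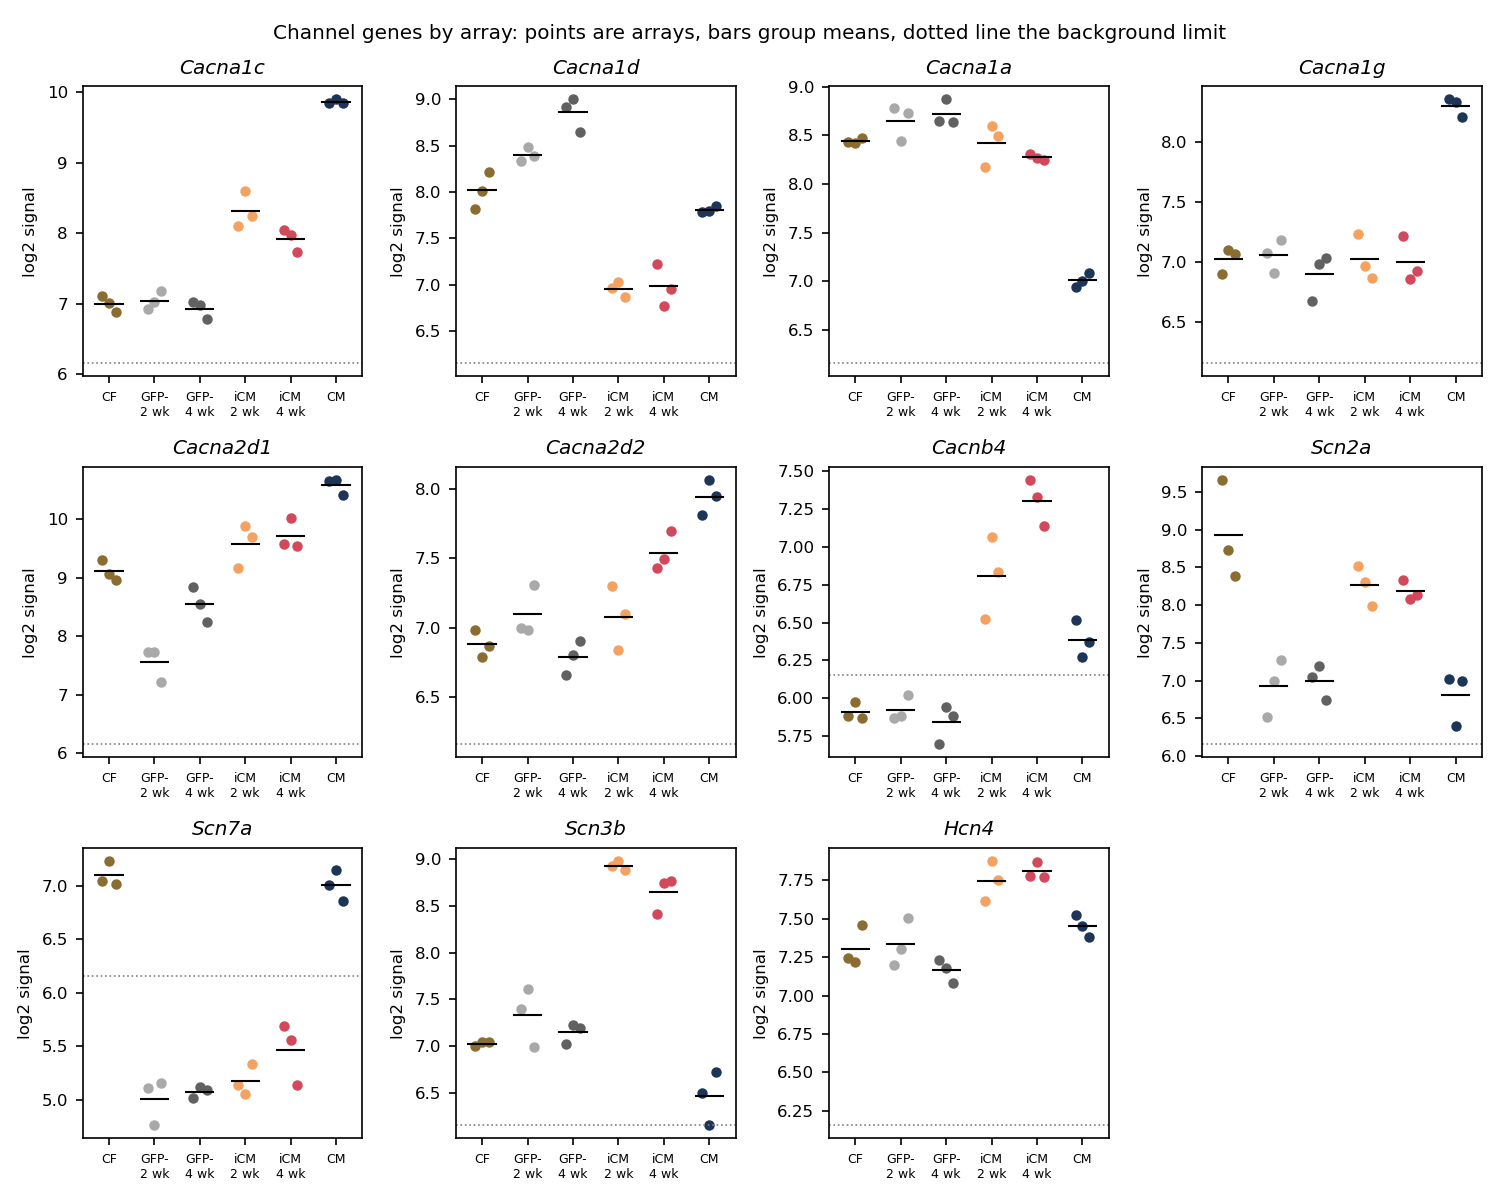
Log2 signal of the 10 named channel genes and of Hcn4 in each array (vertical axes, own scale for each gene) against the 6 groups (horizontal axes). Points are single arrays, bars the means of 3 arrays and the dotted line the background limit of 6.16. Cacna1c and Cacna1g are highest in CM, Scn3b, Cacnb4 and Hcn4 in iCMs, and Scn7a lies above the limit in CF and CM alone.

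Among L-type alpha1 subunits, Cacna1c, the main cardiac L-type pore (probe set 10547322), was highest in CM and intermediate in iCMs. It gave 7.10, 7.02 and 6.88 log2 in CF, 6.92, 7.03 and 7.18 in 2-week GFP- cells, and 7.03, 6.98 and 6.78 in 4-week GFP- cells. The iCM arrays gave 8.10, 8.60 and 8.25 at 2 weeks and 8.04, 7.97 and 7.73 at 4 weeks, and CM gave 9.84, 9.90 and 9.84. Every iCM array lay above every CF and GFP- array and below every CM array. The difference of CM from CF was 2.86 ± 0.12 log2 (SE), or 7.27-fold (adjusted p = 7.34e-14). Cacna1c rose over CF by 1.31 ± 0.12 in 2-week iCMs (adjusted p = 2.84e-08) and by 0.91 ± 0.12 in 4-week iCMs (adjusted p = 3.52e-06), and the 4-week level was 3.86-fold below CM (difference -1.95 ± 0.12, adjusted p = 6.55e-11). Both GFP- groups were close to CF, with differences of 0.04 (95% interval -0.21 to 0.29) at 2 weeks and -0.07 (-0.32 to 0.18) at 4 weeks. The cardiomyocyte marker mean was likewise highest in CM and higher in iCMs than in CF, but it was higher at 4 than at 2 weeks in iCMs and higher in GFP- cells than in CF. Its part in the Cacna1c result was not tested.

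From 2 to 4 weeks Cacna1c fell in iCMs by 0.40 ± 0.12 log2 (adjusted p = 0.034). This call was lost without 2-week array 2 (-0.26, adjusted p = 0.179), 2-week array 3 (-0.43, adjusted p = 0.0617), 4-week array 2 (-0.43, adjusted p = 0.0688) or 4-week array 3 (-0.31, adjusted p = 0.162). It was also lost when only the 2 iCM groups entered the fit (adjusted p = 0.115).

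Cacna1d, the L-type pore of sinus node and neuroendocrine cells (probe set 10418355), had another order of groups, with iCMs lowest and GFP- cells highest. It gave 7.82, 8.01 and 8.22 log2 in CF, 8.33, 8.49 and 8.38 in 2-week GFP- cells, and 8.92, 9.00 and 8.65 in 4-week GFP- cells. In iCMs it gave 6.97, 7.04 and 6.87 at 2 weeks and 7.23, 6.77 and 6.96 at 4 weeks, beside 7.78, 7.80 and 7.85 in CM. All 6 iCM arrays lay under all the others, while CM and CF overlapped (difference -0.21, 95% interval -0.46 to 0.04).

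Against CF, Cacna1d was lower by 2.08-fold in 2-week iCMs (difference -1.06 ± 0.12, adjusted p = 5.28e-07) and by 2.04-fold in 4-week iCMs (-1.03 ± 0.12, adjusted p = 7.1e-07). At 4 weeks it was 3.66-fold lower in iCMs than in GFP- cells (-1.87 ± 0.12, adjusted p = 1.11e-10) and 1.77-fold lower than in CM (-0.82 ± 0.12, adjusted p = 1.11e-05). In GFP- cells it exceeded CF by 0.84 ± 0.12 at 4 weeks (adjusted p = 4.69e-05) and by 0.38 ± 0.12 at 2 weeks (adjusted p = 0.0237). The 2-week call was lost without GFP- array 2 (0.34, adjusted p = 0.0752) or 3 (0.39, adjusted p = 0.0517) and without CF array 1 (0.29, adjusted p = 0.141) or 2 (0.38, adjusted p = 0.0622). All 10 macrophage markers were likewise lower in iCMs than in CF and in GFP- cells of the same age. CM had the lowest macrophage mean but not the lowest Cacna1d, and the part of the macrophage genes in the result was not tested.

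The other L-type genes, Cacna1s of skeletal muscle and Cacna1f of the retina, were called in no comparison. Their group means spanned 6.50 to 6.75 and 6.12 to 6.25 log2. Cacna1s missed the threshold in 4-week iCMs against CM (-0.25, adjusted p = 0.0611). It was called there after quantile and cyclic loess normalization and with the low-signal filter or the replicate block (adjusted p = 0.0343 to 0.0453). It was also called without 4-week iCM array 1 (-0.31, adjusted p = 0.0316) or CM array 2 (-0.35, adjusted p = 0.0104). Between CM and CF it was called without CM array 2 (0.28, adjusted p = 0.0357). A list of 10 skeletal muscle genes had means of 7.03 to 7.21 over CF and both GFP- groups and 7.57 to 8.02 over iCMs and CM.

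Cacna1a, the P/Q-type pore known from nerve terminals (probe set 10573348), was the single high-voltage gene outside the L-type group that was called. It gave 8.43, 8.42 and 8.47 log2 in CF, 8.78, 8.44 and 8.73 in 2-week GFP- cells, and 8.65, 8.87 and 8.64 in 4-week GFP- cells. It gave 8.17, 8.60 and 8.49 in 2-week iCMs, 8.31, 8.27 and 8.25 in 4-week iCMs, and 6.94, 7.01 and 7.08 in CM. CM stood apart from the other 15 arrays. Cacna1a was 2.70-fold lower in CM than in CF (-1.43 ± 0.11, adjusted p = 8.38e-10) and 2.41-fold higher in 4-week iCMs than in CM (1.27 ± 0.11, adjusted p = 8.72e-09). iCMs did not pass the test against CF (-0.02, 95% interval -0.25 to 0.21, at 2 weeks and -0.16, -0.39 to 0.06, at 4 weeks). At 4 weeks iCMs were lower than GFP- cells by 1.36-fold (-0.44 ± 0.11, adjusted p = 0.0028). The macrophage mean was also lowest in CM and was lower in iCMs than in CF, and its part in the Cacna1a result was not tested. Cacna1b (N-type) and Cacna1e (R-type) were called nowhere, with group means of 6.38 to 6.55 and 6.60 to 6.78.

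All 3 T-type genes were higher in CM than in CF, and none of the 3 was called in 4-week iCMs against CF. Cacna1g (probe set 10389929) gave 6.90, 7.10 and 7.07 log2 in CF, 7.07, 6.91 and 7.18 in 2-week GFP- cells, and 6.67, 6.98 and 7.03 in 4-week GFP- cells. It gave 7.23, 6.97 and 6.87 in 2-week iCMs, 7.22, 6.86 and 6.92 in 4-week iCMs, and 8.35, 8.33 and 8.20 in CM. The 5 other groups overlapped, and CM lay above them all. Cacna1g was 2.42-fold higher in CM than in CF (1.27 ± 0.12, adjusted p = 2.51e-08). In 4-week iCMs it was 2.45-fold lower than in CM (-1.30 ± 0.12, adjusted p = 3.2e-08) and differed from CF by -0.02 (95% interval -0.27 to 0.23).

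Cacna1h, the other T-type pore of heart, had means of 7.03 in CF, 6.96 and 7.14 in 2- and 4-week iCMs, and 7.55 in CM. It was 1.43-fold higher in CM than in CF (0.52 ± 0.11, adjusted p = 0.00038) and lower in 4-week iCMs than in CM (-0.41 ± 0.11, adjusted p = 0.00423). Cacna1i, a mainly neuronal T-type pore, differed by smaller amounts. It exceeded CF by 0.28 ± 0.08 in CM, 0.31 ± 0.08 in 2-week iCMs and 0.26 ± 0.08 in 2-week GFP- cells (adjusted p = 0.00996, 0.00691 and 0.0317). The CM call was lost without CM array 3 (0.24, adjusted p = 0.0513) or CF array 3 (0.24, adjusted p = 0.0584). The GFP- call was lost in a fit of its 2 groups alone (adjusted p = 0.0667) and without CF array 1 or 3 or GFP- array 1 or 3 (0.21 to 0.27, adjusted p = 0.0687 to 0.139).

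Of the alpha2delta subunits, which bring calcium channels to the membrane, Cacna2d1 and Cacna2d2 were both highest in CM. Cacna2d1, the main cardiac form (probe set 10519855), gave 9.30, 9.07 and 8.97 log2 in CF, 7.74, 7.72 and 7.21 in 2-week GFP- cells, and 8.84, 8.56 and 8.24 in 4-week GFP- cells. The iCMs gave 9.17, 9.88 and 9.70 at 2 weeks and 9.58, 10.01 and 9.54 at 4 weeks, and CM gave 10.66, 10.66 and 10.42. The 2-week GFP- arrays were lowest and the CM arrays highest, with no overlap with any other group. Cacna2d1 rose over CF by 1.47 ± 0.19 in CM (2.76-fold, adjusted p = 1.51e-06). It was lower than CF by 2.94-fold in 2-week GFP- cells (-1.56 ± 0.19, adjusted p = 4.97e-06), while the 4-week GFP- difference did not pass (-0.57 ± 0.19, adjusted p = 0.0553) but was called in 7 of the alternative fits, without counting those that leave out an array (adjusted p = 0.0187 to 0.0434). At 2 weeks iCMs exceeded GFP- cells 4.07-fold (2.03 ± 0.19, adjusted p = 2.49e-08) and at 4 weeks 2.24-fold (1.16 ± 0.19, adjusted p = 4e-05).

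Against CF, Cacna2d1 was higher in 4-week iCMs by 0.60 ± 0.19 (adjusted p = 0.0185) and by 0.47 ± 0.19 in 2-week iCMs, which did not pass (adjusted p = 0.0597) but was called in 7 of those alternative fits (adjusted p = 0.000975 to 0.0486). The 4-week call was lost without 4-week iCM array 2 (0.45, adjusted p = 0.115), CF array 2 (0.57, adjusted p = 0.0565) or CF array 3 (0.52, adjusted p = 0.0803). The level in 4-week iCMs remained 1.83-fold under CM (-0.87 ± 0.19, adjusted p = 0.000817). A further Cacna2d1 probe set gave differences of 1.56 between CM and CF and -0.75 between 4-week iCMs and CM. The fibroblast marker mean was 8.91 to 9.34 in 2-week GFP- cells beside 10.52 to 10.86 in CF, and its part in the fall of Cacna2d1 was not tested.

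Cacna2d2 (probe set 10588592) gave 6.99, 6.79 and 6.87 log2 in CF, 7.00, 6.99 and 7.31 in 2-week GFP- cells, and 6.66, 6.80 and 6.90 in 4-week GFP- cells. It gave 7.30, 6.84 and 7.10 in 2-week iCMs, 7.43, 7.50 and 7.70 in 4-week iCMs, and 7.82, 8.07 and 7.95 in CM. The 4-week iCM arrays lay between CM and all others, and 2-week iCMs overlapped with CF. Cacna2d2 was 2.09-fold higher in CM than in CF (1.06 ± 0.12, adjusted p = 3.25e-07) and 1.58-fold higher in 4-week iCMs than in CF (0.66 ± 0.12, adjusted p = 0.000202). In 4-week iCMs it was below CM by -0.40 ± 0.12 (adjusted p = 0.012), a call lost without 4-week iCM array 1 (-0.35, adjusted p = 0.0561) or CM array 2 (-0.34, adjusted p = 0.0612).

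From 2 to 4 weeks Cacna2d2 rose in iCMs by 0.46 ± 0.12 (adjusted p = 0.0165), and in GFP- cells its mean went from 7.10 to 6.79. It was the 1 channel gene called for a difference in time change between iCMs and GFP- cells (0.77 ± 0.17, adjusted p = 0.0121). The rise in iCMs was lost without 2-week iCM array 2 (0.34, adjusted p = 0.0911) or 4-week iCM array 3 (0.38, adjusted p = 0.0858) and in a fit of the 2 iCM groups alone (adjusted p = 0.0578). Cacna2d1 missed the threshold in this test with a difference of -0.86 ± 0.26 (adjusted p = 0.0762). It passed after quantile and cyclic loess normalization, with array weights, with the mean over probe sets and with the replicate block (-0.83 to -1.06, adjusted p = 0.00117 to 0.0473). Cacna2d1 also passed without 2-week iCM array 1, 4-week iCM array 2 or 4-week GFP- array 3. Cacnb4 missed the threshold in the same test, at 0.58 (adjusted p = 0.0598). It passed with array weights (0.40, adjusted p = 0.0373). It also passed without 2-week iCM array 2 (0.70, adjusted p = 0.0152) or 4-week iCM array 3 (0.66, adjusted p = 0.0445). In all genes, 1.86% were called higher and 2.08% lower in this test of the difference in time change. The remaining alpha2delta genes were Cacna2d3, with every group mean under the limit, and Cacna2d4 (7.14 to 7.31), which was called nowhere. Cacna2d3 was called higher in CM than in CF (0.42 ± 0.12, adjusted p = 0.00924), a call lost without CF array 2 (0.36, adjusted p = 0.0504).

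Beta subunits are cytoplasmic partners that carry the alpha1 pore to the surface, and Cacnb2 is the main form in heart. Cacnb4, a form better known from brain (probe set 10482695), had its highest signal in iCMs. It gave 5.89, 5.98 and 5.87 log2 in CF, 5.87, 5.89 and 6.02 in 2-week GFP- cells, and 5.70, 5.94 and 5.89 in 4-week GFP- cells, all under the limit. The iCMs gave 6.52, 7.06 and 6.84 at 2 weeks and 7.44, 7.33 and 7.13 at 4 weeks, beside 6.52, 6.27 and 6.37 in CM. All 4-week iCM arrays lay above all other arrays, and the 2-week iCM arrays met the CM arrays at 6.52.

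Cacnb4 differed from CF by 0.90 ± 0.12 in 2-week iCMs (adjusted p = 4.43e-06) and by 1.39 ± 0.12 in 4-week iCMs (adjusted p = 9.74e-09). Since CF was under the limit, the limit was set in its place, which gives at least 1.57-fold and at least 2.21-fold. Against CM, 4-week iCMs were 1.88-fold higher (0.91 ± 0.12, adjusted p = 2.78e-06), and CM exceeded CF by at least 1.17-fold (0.48 ± 0.12, adjusted p = 0.00256). The rise from 2 to 4 weeks was 0.49 ± 0.12 (adjusted p = 0.00971). It was lost without 2-week iCM array 1 (0.35, adjusted p = 0.0544) or 4-week iCM array 1 (0.42, adjusted p = 0.0501) and in a fit of the 2 groups alone (adjusted p = 0.0624).

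The other beta genes were called between CM and CF alone. Cacnb1 was higher in CM by 0.27 ± 0.08 (adjusted p = 0.0125), with means of 7.81 and 7.54. Cacnb2, with means of 7.12 in CM and 6.77 in CF, was higher by 0.35 ± 0.13 (adjusted p = 0.0332). The Cacnb2 arrays of the 2 groups overlapped, and the call was lost without CF array 2 (0.22, adjusted p = 0.211), CF array 3 (0.32, adjusted p = 0.095), CM array 2 (0.36, adjusted p = 0.0579) or CM array 3 (0.29, adjusted p = 0.126), and in a fit of the 2 groups alone (adjusted p = 0.0542). In 4-week iCMs Cacnb2 had a mean of 6.80, beside 6.77 in CF.

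Gamma subunits belong to a family that holds a skeletal muscle calcium channel subunit, Cacng1, and partners of glutamate receptors such as Cacng2 and Cacng3. Of 7, 5 were called nowhere, and the range of group means of a gene was at most 0.35 log2 among these. Cacng7 had means of 7.67 in CF, 7.05 in 4-week GFP- cells, 7.42 in 4-week iCMs and 7.69 in CM. It was 1.54-fold lower in 4-week GFP- cells than in CF (-0.62 ± 0.11, adjusted p = 0.000676) and higher in 4-week iCMs than in GFP- cells (0.38 ± 0.11, adjusted p = 0.0128). The iCM call was lost without 4-week iCM array 1 (0.30, adjusted p = 0.078) or 3 (0.32, adjusted p = 0.0646). Cacng3, under the limit throughout, was called between CM and CF (0.32 ± 0.10, adjusted p = 0.0123), and the call was lost without CM array 2 (0.27, adjusted p = 0.0611) and after cyclic loess normalization (0.25, adjusted p = 0.0638).

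Of the 8 sodium channel alpha genes, 3 were called. Scn2a, a neuronal pore-forming subunit (probe set 10472400), was highest in CF and low in CM and GFP- cells. It gave 9.66, 8.74 and 8.39 log2 in CF, 6.51, 6.99 and 7.28 in 2-week GFP- cells, and 7.05, 7.20 and 6.74 in 4-week GFP- cells. It gave 8.52, 8.31 and 7.99 in 2-week iCMs, 8.33, 8.08 and 8.14 in 4-week iCMs, and 7.02, 6.40 and 7.00 in CM. The 6 iCM arrays lay above all CM and GFP- arrays, and the 4-week ones below all CF arrays.

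Scn2a was 4.36-fold lower in CM than in CF (-2.12 ± 0.25, adjusted p = 6.15e-07), 4.01-fold lower in 2-week GFP- cells (-2.00 ± 0.25, adjusted p = 9.28e-06) and 3.82-fold lower in 4-week GFP- cells (-1.93 ± 0.25, adjusted p = 1.79e-05). Against CM, 4-week iCMs were 2.60-fold higher (1.38 ± 0.25, adjusted p = 0.000171). Against GFP- cells, iCMs were higher by 1.34 ± 0.25 at 2 weeks and 1.19 ± 0.25 at 4 weeks (adjusted p = 0.00022 and 0.000804). The smaller difference of 4-week iCMs from CF (-0.75 ± 0.25, adjusted p = 0.0297) depended in size on the highest CF array. Without CF array 1 it was -0.38 (adjusted p = 0.234), and it also missed the threshold without 4-week iCM array 2 (-0.69, adjusted p = 0.0887) or 3 (-0.72, adjusted p = 0.0768). In 2-week iCMs the difference from CF did not pass (-0.66, adjusted p = 0.0513). It was called after cyclic loess normalization and with array weights, an intensity trend, the low-signal filter or the replicate block (adjusted p = 0.00534 to 0.0487). It was also called without 2-week iCM array 1 (-0.78, adjusted p = 0.0415) or CF array 3 (-0.93, adjusted p = 0.00877). The fibroblast marker mean was 9.56 to 9.88 in CM and 9.22 to 9.50 in 4-week GFP- cells, below CF, but 8.76 to 8.82 in 4-week iCMs, where Scn2a was higher than in both. Its part in the Scn2a result was not tested.

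Scn2a was the channel gene with the most probe sets, 14, and the sizes of their differences varied. The probe set used averaged 7.69 log2 over the 18 arrays and the next one 7.67. Their means were 8.93 and 7.76 in CF but 6.80 and 7.63 in CM, so the CF signal bore on the choice. All 14 were lower in CM than in CF, by differences from -0.13 to -2.57, and all 14 were higher in 4-week iCMs than in CM, by 0.16 to 1.80. For 4-week iCMs against CF, 12 were lower and 2 higher (-0.77 to 0.09). Of the 14, 5 were under the limit in all 6 groups, and their differences are not measured as levels above background. In the 5 that were above the limit in CF, CM and 4-week iCMs, the differences ran from -0.13 to -2.12 for CM against CF and from 0.16 to 1.38 for 4-week iCMs against CM. The probe set second by mean level varied least, and the mean over all 14, dim ones included, gave -1.08 for CM against CF, -0.30 for 4-week iCMs against CF and 0.77 for 4-week iCMs against CM. The same averaging gave 0.62 and 0.67 for iCMs against GFP- cells at 2 and 4 weeks, and -0.99 and -0.97 for GFP- cells against CF at 2 and 4 weeks, and all 7 of these stayed called. With that averaging the difference of 2-week iCMs from CF, -0.37, was called as well (adjusted p = 0.00376).

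**Figure D2:**
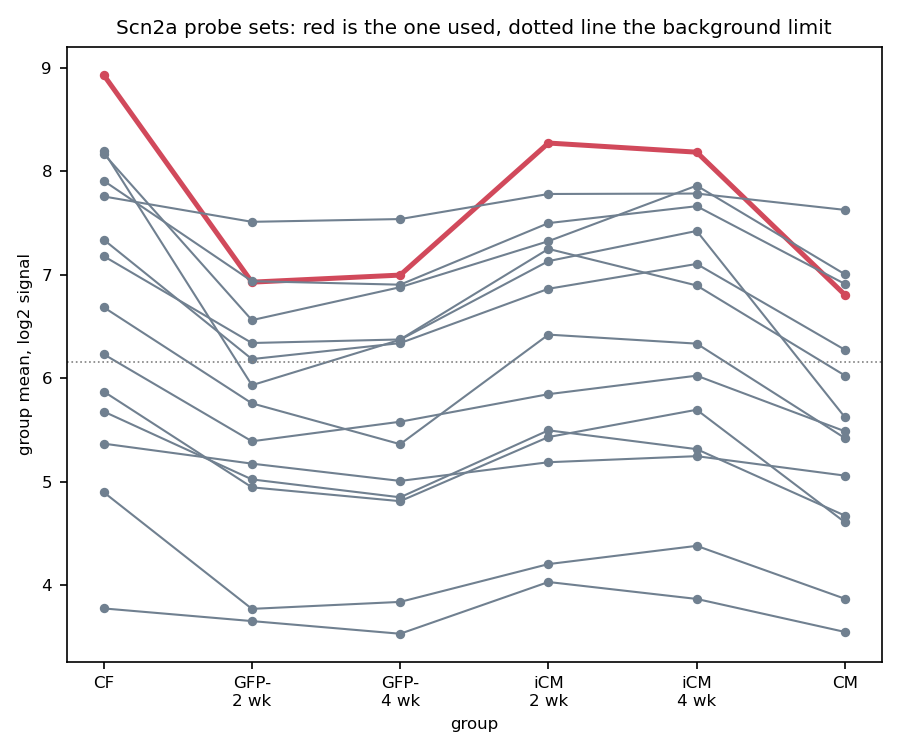
Group means of 3 arrays in log2 signal (vertical axis) for each of the 14 probe sets that name Scn2a, over the 6 groups (horizontal axis). The red line is the probe set used and the dotted line the background limit of 6.16, and all 14 lines fall from CF to CM and from 4-week iCMs to CM.

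Scn7a, a sodium channel relative that responds to sodium concentration and is known from glia and other non-excitable cells (probe set 10483353), was above the limit in CF and CM alone. It gave 7.05, 7.23 and 7.02 log2 in CF and 7.01, 7.15 and 6.86 in CM. All 12 arrays of iCMs and GFP- cells were under the limit, with 5.11, 4.76 and 5.15 in 2-week GFP- cells, 5.02, 5.12 and 5.09 in 4-week GFP- cells, 5.14, 5.05 and 5.33 in 2-week iCMs, and 5.69, 5.56 and 5.14 in 4-week iCMs. CF and CM overlapped, with a difference of -0.10 (95% interval -0.37 to 0.18).

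Scn7a differed from CF by -1.93 ± 0.13 in 2-week iCMs, -1.64 ± 0.13 in 4-week iCMs, -2.09 ± 0.13 in 2-week GFP- cells and -2.02 ± 0.13 in 4-week GFP- cells (adjusted p = 4.95e-10, 4.22e-09, 1.31e-09 and 1.46e-09). With the limit in place of the dim signal, CF was at least 1.92-fold higher than each of them. CM was at least 1.80-fold higher than 4-week iCMs (difference of iCMs from CM -1.54 ± 0.13, adjusted p = 8.93e-09). The difference between 4-week iCMs and GFP- cells (0.39 ± 0.13, adjusted p = 0.0282) lay wholly under the limit and was lost without any of 4 arrays (iCM array 1 or 2, GFP- array 1 or 3, with 0.27, 0.34, 0.36 and 0.39 and adjusted p = 0.166, 0.0972, 0.0871 and 0.0561). It was also lost after cyclic loess normalization (0.31, adjusted p = 0.0817) and with array weights (0.18, adjusted p = 0.236). A mean over 10 genes of neurons, Schwann cells and glia stayed between 7.04 and 7.40 in all groups, and the fibroblast mean was highest in CF and next in CM. The part of fibroblast genes in the result was not tested.

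The 250 bases before the annotated Scn7a start are shown because they held the single match, among the channel genes, to the GATA-type motif. The window lies on the minus strand at chr2:66784911-66785160 (RefSeq, GRCm38.p6), and the capitals mark AGATAA as read on the other strand.
Scn7a: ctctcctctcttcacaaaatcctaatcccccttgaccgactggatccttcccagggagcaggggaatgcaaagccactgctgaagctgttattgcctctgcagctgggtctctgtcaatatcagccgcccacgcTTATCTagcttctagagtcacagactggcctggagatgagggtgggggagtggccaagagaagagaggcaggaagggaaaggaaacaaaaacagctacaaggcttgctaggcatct
Of the 38 genes, 29 had promoter windows in the RefSeq table, 39 in all, and both strands were searched. AGATAA was in 2.56% of the 39 windows and in 9.99% of 32851 windows of all genes. The T-box motif AGGTGT was in 7.69% (Cacna1i, Hcn4 and a second start of Scn2a) against 11.8%. The MEF2 consensus was in 0 of 39 against 2.92%. A match is a string of letters in a window and no evidence of binding.

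Scn10a, the third called alpha gene, is a pore-forming subunit known from sensory neurons. Its means were 6.12 in CF, 6.33 in 4-week iCMs and 6.66 in CM, so that it was near the limit in most groups. It was at least 1.41-fold higher in CM than in CF (0.54 ± 0.10, adjusted p = 0.000116) and higher in 4-week iCMs than in GFP- cells by at least 1.13-fold (0.40 ± 0.10, adjusted p = 0.00268). It was below CM in 4-week iCMs (-0.32 ± 0.10, adjusted p = 0.0124), a call lost without 4-week iCM array 2 (-0.28, adjusted p = 0.0623). Scn1a, Scn3a, Scn8a and Scn9a, all neuronal alpha subunits, were under the limit in every group, and Scn11a had means of 6.11 to 6.29.

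Sodium channel beta subunits are single-pass proteins that tune gating and adhesion. Scn3b (probe set 10584549) had the largest difference of the 38 genes between 4-week iCMs and CM. It gave 7.00, 7.04 and 7.04 log2 in CF, 7.40, 7.61 and 6.99 in 2-week GFP- cells, and 7.03, 7.22 and 7.19 in 4-week GFP- cells. The iCMs gave 8.92, 8.97 and 8.89 at 2 weeks and 8.42, 8.74 and 8.76 at 4 weeks, beside 6.50, 6.16 and 6.73 in CM. The 6 iCM arrays were the highest and the 3 CM arrays the lowest, with no overlap.

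Scn3b rose over CF by 1.90 ± 0.14 in 2-week iCMs (3.73-fold, adjusted p = 2.19e-09) and by 1.61 ± 0.14 in 4-week iCMs (3.06-fold, adjusted p = 1.85e-08). It exceeded CM 4.52-fold in 4-week iCMs (2.18 ± 0.14, adjusted p = 2.02e-10), and CM was 1.48-fold below CF (-0.56 ± 0.14, adjusted p = 0.00315). Against GFP- cells of the same age, iCMs were higher by 1.59 ± 0.14 and 1.49 ± 0.14 (adjusted p = 1.95e-08 and 5.08e-08). Neither GFP- group passed the test against CF (0.31, 95% interval 0.01 to 0.61, and 0.12, -0.18 to 0.42). The 2-week difference was called with array weights (0.30, adjusted p = 0.0351) and without 2-week GFP- array 3 (0.48, adjusted p = 0.0193). Scn2b (6.28 to 6.46) and Scn4b (6.35 to 6.83) were called nowhere.

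A mean over 7 mesothelial genes was, like Scn3b, highest in iCMs and lowest in CM, at 7.78 to 8.22 in CF, 8.96 to 9.28 in 2-week iCMs, 8.58 to 8.74 in 4-week iCMs and 6.96 to 7.06 in CM. It was 7.78 to 8.46 in 2-week and 7.42 to 7.81 in 4-week GFP- cells, where Scn3b was not below CF. Of the 7, 6 were higher in 4-week iCMs than in CM and 4 were higher than in CF, with 2 lower. Cacnb4 and Hcn4 were also highest in iCMs but, unlike the mesothelial mean, not lower in CM than in CF. Cacnb4 means were 5.91 in CF (under the limit), 6.39 in CM, and 6.81 and 7.30 in 2- and 4-week iCMs. Hcn4 means were 7.31 in CF, 7.45 in CM, and 7.75 and 7.81 in 2- and 4-week iCMs. The part of the mesothelial genes in the Scn3b, Cacnb4 and Hcn4 results was not tested.

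Of the pacemaker channels, Hcn4, the main form of the sinus node and the embryonic heart (probe set 10585851), was the 1 gene called, with differences under 1 log2. It is given by array as a gene chosen after its values were seen. Hcn4 gave 7.25, 7.22 and 7.46 log2 in CF, 7.20, 7.30 and 7.51 in 2-week GFP- cells, and 7.23, 7.18 and 7.08 in 4-week GFP- cells. It gave 7.62, 7.88 and 7.75 in 2-week iCMs, 7.78, 7.87 and 7.77 in 4-week iCMs, and 7.53, 7.45 and 7.38 in CM. Every iCM array lay above every other array, by a small margin, while CM and CF overlapped.

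Hcn4 exceeded CF by 0.44 ± 0.10 in 2-week iCMs (1.36-fold, adjusted p = 0.00113) and by 0.50 ± 0.10 in 4-week iCMs (1.42-fold, adjusted p = 0.000346). It exceeded CM in 4-week iCMs by 0.36 ± 0.10 (1.28-fold, adjusted p = 0.00588) and GFP- cells of that age by 0.64 ± 0.10 (1.56-fold, adjusted p = 1.88e-05). At 2 weeks iCMs exceeded GFP- cells by 0.41 ± 0.10 (adjusted p = 0.0019). The difference of CM from CF did not pass (0.15, 95% interval -0.06 to 0.35). Hcn2 (6.73 to 6.95) and Hcn3 (6.74 to 6.97) were called nowhere.

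The 250 bases before the annotated Hcn4 start, on the plus strand at chr9:58822699-58822948 (RefSeq, GRCm38.p6), are shown as a window with a T-box motif match, in the pacemaker gene whose iCM arrays stood apart. The capitals mark AGGTGT as read on the other strand.
Hcn4: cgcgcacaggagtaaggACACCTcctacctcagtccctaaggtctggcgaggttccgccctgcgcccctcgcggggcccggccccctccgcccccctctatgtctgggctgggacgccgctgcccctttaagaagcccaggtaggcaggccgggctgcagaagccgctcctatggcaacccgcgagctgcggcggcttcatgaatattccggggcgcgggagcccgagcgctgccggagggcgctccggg
No transcription factor was measured on this window here, and nothing about its binding follows from the match.

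The counts of called channel genes are given here beside the share of all genes called. In 2-week iCMs against CF, 5 of 38 were higher and 2 lower, beside 17.4% and 15.8% of all genes. In 4-week iCMs against CF, 6 were higher (Cacna1c, Cacna2d1, Cacna2d2, Cacnb4, Scn3b and Hcn4) and 3 lower (Cacna1d, Scn2a and Scn7a), beside 14.3% and 15.2%. Against GFP- cells, iCMs had 6 higher and 1 lower at 2 weeks (all genes 16.2% and 18.4%) and 10 higher and 2 lower at 4 weeks (17.2% and 17.1%). These comparisons share the CF or iCM arrays, so their counts are not independent.

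Against CM, 4-week iCMs had 8 channel genes lower and 5 higher, beside 16.1% and 19% of all genes. After quantile or cyclic loess normalization it was 12 lower and 5 higher, with Cacna1s, Cacnb1, Cacnb2 and Cacng7 added, and with the replicate block 10 lower and 5 higher. The 8 lower were Cacna1c, Cacna1d, Cacna1g, Cacna1h, Cacna2d1, Cacna2d2, Scn7a and Scn10a, and the 5 higher were Cacna1a, Cacnb4, Scn2a, Scn3b and Hcn4. The median of the 38 was -0.084 log2 in this comparison, beside -0.010 for all genes.

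From 2 to 4 weeks, iCMs had 2 channel genes higher (Cacna2d2 and Cacnb4) and 1 lower (Cacna1c), beside 4.29% and 7.24% of all genes, and after quantile or cyclic loess normalization the split was 2 higher and 2 lower. All 3 calls were lost in a fit of the 2 groups alone, where limma called 0 at the adjusted threshold and 6 had an unadjusted p under 0.05. In GFP- cells against CF, 2 were higher and 3 lower at 2 weeks (13.8% and 8.93% of all genes) and 1 higher and 3 lower at 4 weeks (5.79% and 5.7%).

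**Figure D3:**
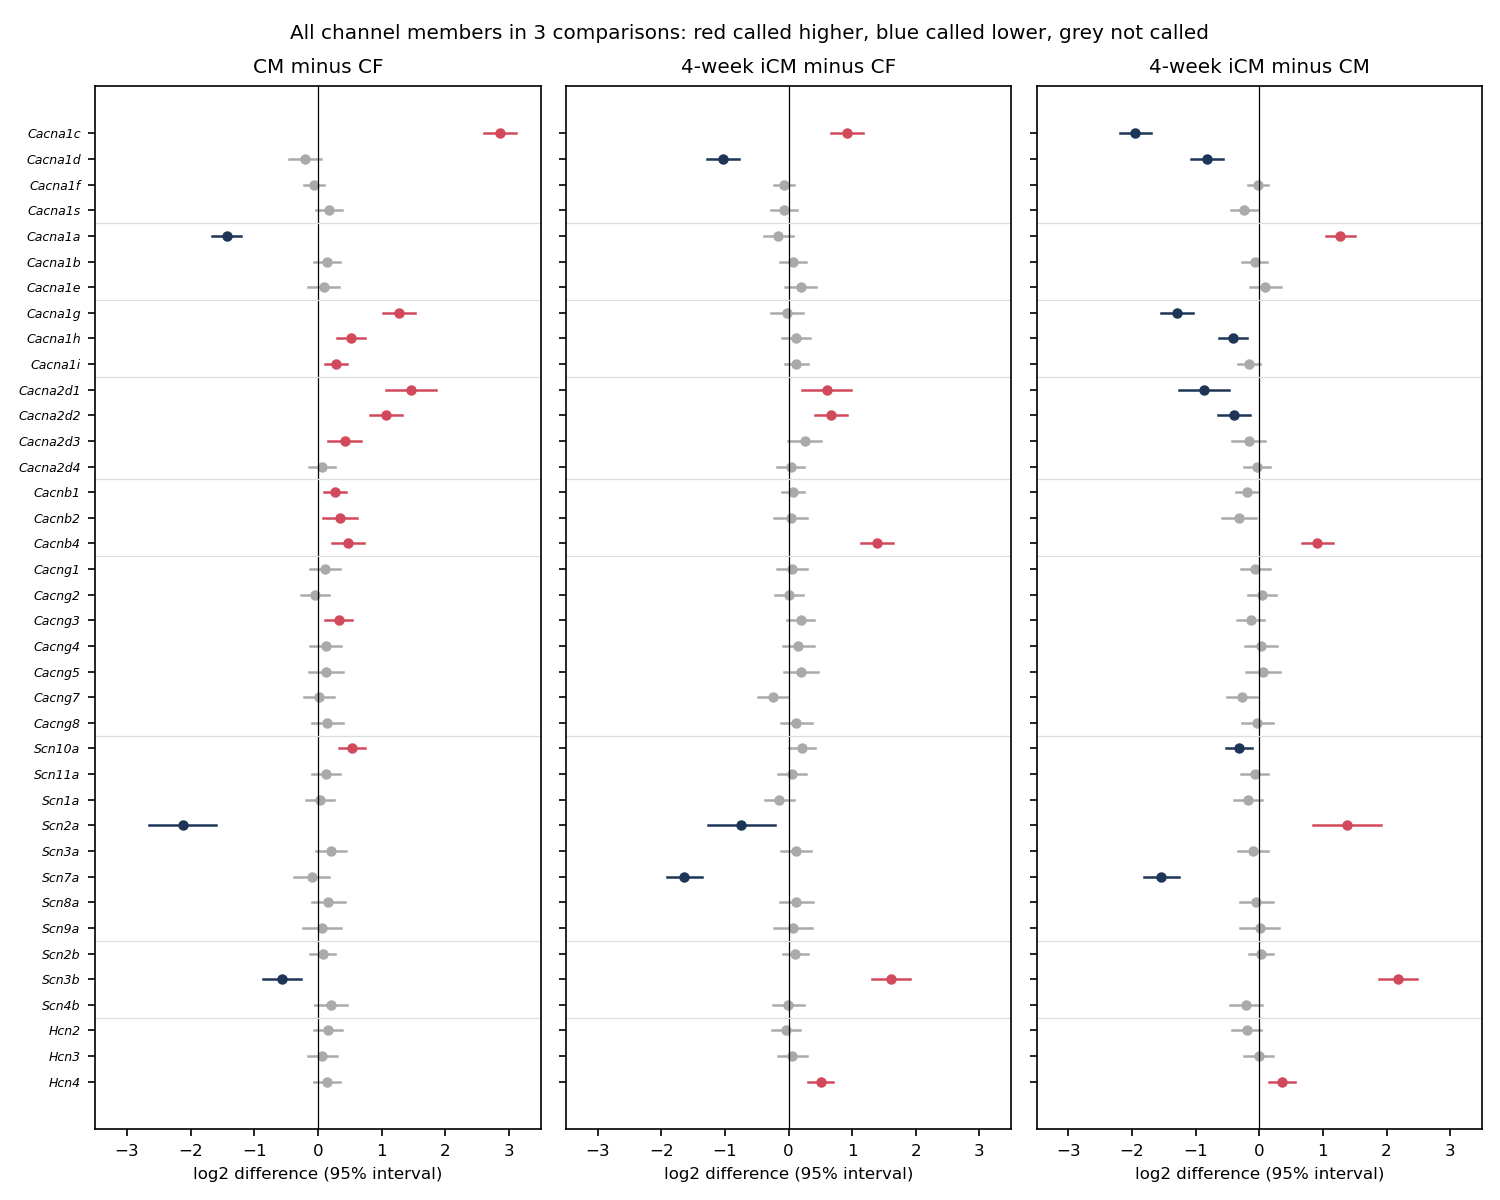
Log2 differences of all 38 channel genes with 95% intervals (horizontal axes) for CM minus CF, 4-week iCM minus CF and 4-week iCM minus CM, with genes in rows by subunit role. Red points are called higher, blue points called lower and grey points not called; Cacna1c is at 2.86 in the first panel, 0.91 in the second and -1.95 in the third.

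Regulators of these channels were taken as 3 lists. Of 22 listed L-type regulators, 18 were measured; 6 were higher and 3 lower in CM than in CF, and 6 were higher and 1 lower in 4-week iCMs than in CF. For this and the next lists the shares of all genes are 19.6% higher and 21.5% lower in CM, and 14.3% higher and 15.2% lower in 4-week iCMs. Rrad, a small GTPase that restrains L-type current, rose over CF by 2.24 ± 0.17 log2 in CM and by 3.26 ± 0.17 in 4-week iCMs (adjusted p = 1.13e-09 and 8.2e-12), and was higher in those iCMs than in CM by 1.02 ± 0.17 (adjusted p = 7.21e-05). Its means were 7.27 ± 0.36 (SD, n = 3) in CF, 10.53 ± 0.12 in 4-week iCMs and 9.51 ± 0.04 in CM. Akap5, an anchor for kinases at the channel, rose in 4-week iCMs by 2.00 ± 0.19 (adjusted p = 3.45e-08) and did not pass in CM (-0.08 ± 0.19, adjusted p = 0.769). Akap7, another anchor, had the reverse, with 1.23 ± 0.12 in CM (adjusted p = 5.09e-08) and 0.25 ± 0.12 in 4-week iCMs (adjusted p = 0.139). Jph2, which joins the surface membrane to the calcium store, rose in both, by 1.19 ± 0.14 and 0.86 ± 0.14 (adjusted p = 5.05e-07 and 5.22e-05).

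Of 13 listed sodium channel partners, 12 were measured; 10 were higher and 1 lower in CM than in CF, with a median of 1.98 log2. In 4-week iCMs 6 were higher than in CF and 1 lower, with a median of 0.22, and against CM 8 were lower and 1 higher, beside 16.1% and 19% of all genes. Fgf12, an intracellular FGF that binds the channel's tail, rose over CF by 4.19 ± 0.15 in CM and by 1.39 ± 0.15 in 4-week iCMs (adjusted p = 7.17e-15 and 2.98e-07). Pkp2, a desmosome protein that sodium channels cluster with, rose by 3.32 ± 0.15 in CM and 3.08 ± 0.15 in 4-week iCMs (adjusted p = 3.81e-13 and 3.5e-12), and the difference of the iCMs from CM did not pass (-0.24 ± 0.15, adjusted p = 0.261). Ank3, which anchors the channel, rose by 3.01 ± 0.12 and 2.11 ± 0.12, and Cav3, the muscle caveolin, by 2.80 ± 0.12 and 0.72 ± 0.12 (adjusted p from 2.97e-14 for Ank3 in CM to 6.96e-05 for Cav3 in iCMs).

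All 10 listed pacemaker regulators were measured; 4 were higher and 1 lower in CM than in CF, and 6 were higher in 4-week iCMs than in CF. Popdc2 and Bves, membrane proteins that bind cyclic AMP, rose over CF by 4.73 ± 0.22 and 4.48 ± 0.14 in CM and by 2.75 ± 0.22 and 2.34 ± 0.14 in 4-week iCMs (adjusted p from 1.15e-15 for Bves in CM to 3.8e-09 for Popdc2 in iCMs). Gjc1, a gap junction protein of the conduction system, rose by 2.39 ± 0.12 and 0.67 ± 0.12 (adjusted p = 1.35e-12 and 0.000166). Tbx18, a transcription factor of the sinus node region and of epicardium, was lower in CM than in CF (-0.70 ± 0.15, adjusted p = 0.000862) and higher in 4-week iCMs (1.09 ± 0.15, adjusted p = 1.01e-05). Its means were 7.77 in CF, 8.86 in 4-week iCMs and 7.07 in CM, and the mesothelial mean followed the same order of these 3 groups. In GFP- cells the Tbx18 means, 6.78 at 2 weeks and 6.96 at 4 weeks, were lower than in CM. The mesothelial mean there, 7.78 to 8.46 and 7.42 to 7.81, was higher than in CM (6.96 to 7.06). The part of the mesothelial genes in the Tbx18 result was not tested.

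**Figure D4:**
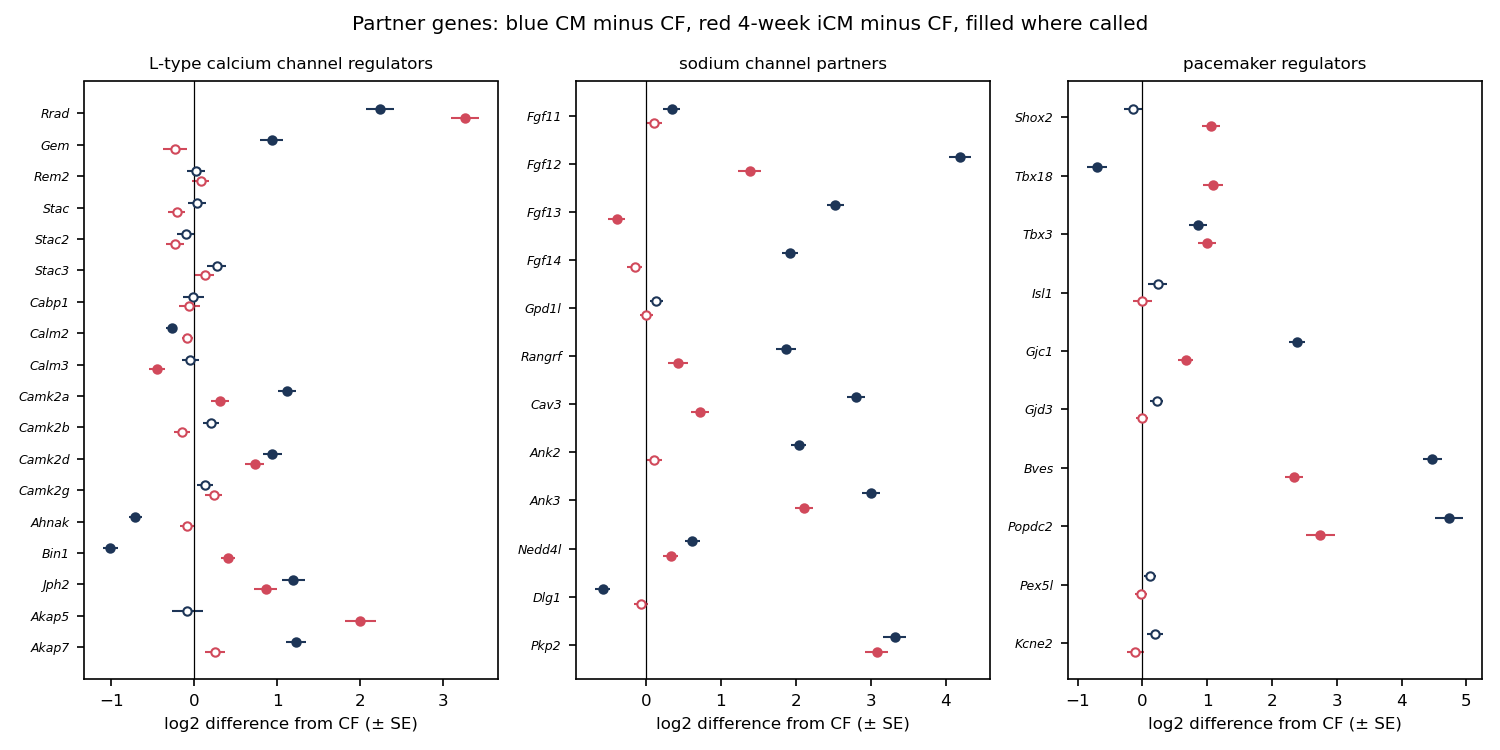
Log2 difference from CF with its SE (horizontal axes) for the measured genes of the 3 regulator lists (rows), blue for CM and red for 4-week iCMs, filled where called. Rrad, Akap5 and Tbx18 lie further right in iCMs than in CM, while Fgf12, Cav3, Popdc2 and Bves lie further right in CM.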

How the data were processed

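Gene expression was measured on Affymetrix mouse Gene 1.0 ST arrays. Each deposited value is a log2 intensity of a probe set, made with RMA per the submitters' processing notes; its version, the genome build and the software are not given in the sources used here. Per the labels' protocols, RNA came from the PicoPure kit and was labelled with the MessageAmp II-biotin kit. RMA normalizes across arrays and compresses signals near background. Of 28682 probe sets, 21755 named 1 gene in GEO's platform annotation, 1592 named several and 5335 none. The probe set with the highest mean stood for each of the 997 genes with several, which left 19912 genes. All 18 columns matched a sample.

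One limma model (3.58.1, R 4.3.3, lmFit and eBayes) was fitted to all 18 arrays with group as its term. Its prior SD was 0.131 log2 with 6.96 degrees of freedom, beside 12 residual ones. Tests were two-sided, with Benjamini-Hochberg adjustment over all genes within each of 10 comparisons. The procedure was tested on simulated data. Errors of differences are SE and of means SD, n = 3. Members named with every array were called with at least 1 log2 in some comparison and had a group mean above the background limit. Up to 4 genes of each of the 3 regulator lists were named by largest difference. The members, the regulator lists and the 8 marker lists (cardiomyocyte, fibroblast, macrophage, endothelial, smooth muscle and pericyte, skeletal muscle, neuron with Schwann cell and glia, mesothelium) were chosen with earlier results of these data known. The mean of 10 endothelial genes was 6.93 to 7.04 in CF, 7.85 to 8.63 over GFP- cells, 7.38 to 7.51 over iCMs and 8.51 to 8.61 in CM, and that of 10 smooth muscle and pericyte genes 7.65 to 8.72 over all arrays. Promoter windows and motifs used RefSeq (GRCm38.p6), where all 38 members matched by gene ID, with Python 3.11.15. Alternatives were other normalizations, array weights, an intensity trend, a filter on low signals, the mean over probe sets, fits of only the groups compared, a replicate block and leaving out each array.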

Additional observations from a re-analysis of the deposited data

Results flagged for a closer look

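Cacna2d2, an alpha2delta calcium channel subunit, changed with time differently in iCMs and in GFP- cells. Its rise from 2 to 4 weeks in iCMs minus its change in GFP- cells was 0.77 ± 0.17 log2 (SE, limma interaction, adjusted p = 0.0121, n = 3 arrays in each of 4 groups). All 3 iCM arrays at 4 weeks lay above all 3 at 2 weeks, and all 3 GFP- arrays at 4 weeks lay below all 3 at 2 weeks.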

How the results depend on the processing

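Of 76 calls of channel genes over the 10 comparisons, 61 held under every alternative that tested them, 15 were lost under at least 1, and 0 changed sign; 48 others were gained under at least 1 alternative. The filter on low signals tested 25 of the 38 genes and so left 18 of the 76 calls, of 5 genes, untested. With array weights the count rose from 7 to 12 for 2-week iCMs against GFP- cells, from 3 to 10 for iCMs from 2 to 4 weeks, from 5 to 10 and from 4 to 7 for 2- and 4-week GFP- cells against CF, and from 1 to 10 for the difference in time change. Over all 19912 genes, counts called higher and lower also rose with array weights. They went from 3218 and 3656 to 4286 and 5400 for 2-week iCMs against GFP- cells. For iCMs from 2 to 4 weeks they went from 855 and 1442 to 2653 and 3332. Against CF, 2-week GFP- cells went from 2742 and 1778 to 4619 and 2779, and 4-week ones from 1152 and 1134 to 1963 and 1757. For the difference in time change they went from 370 and 415 to 2240 and 1951. In that last test the count was 2 after quantile or cyclic loess normalization, with the mean over probe sets and with the replicate block, and 1 to 2 when 1 array was left out. For iCMs from 2 to 4 weeks it was 0 with only those groups in the fit and 1 to 3 when 1 array was left out, with 1 without 2-week array 2. In all of these the cause was not tested. The uncalled difference of Scn7a between 4- and 2-week iCMs, 0.29, turned to -0.011 with array weights. The replicate block moved no other count by over 1.5 times. Deviations of same-numbered arrays of different groups correlated from -0.30 to 0.45 over 45 pairs of arrays (median -0.0017), with 15 above 0.1. Arrays with other numbers gave -0.51 to 0.41 over 90 pairs (median 0.0013), with 21 above 0.1. A median near 0 cannot exclude that the numbers pair some of the groups. Signals under the limit can hide a fall.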

Other observations

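The 3 probe sets that name more than 1 sodium channel alpha gene were left out of every comparison. All of their group means were under the background limit, from 3.05 to 3.17 log2 for the one shared by Scn2a, Scn3a and Scn9a, from 4.46 to 5.56 for the one shared by Scn3a and Scn9a, and from 5.03 to 5.41 for the one shared by Scn1a and Scn3a. In the RefSeq annotation Scn1a, Scn2a, Scn3a, Scn7a and Scn9a all lie on chromosome 2. Of these, Scn2a and Scn7a had group means above the limit, and both were high in CF. In CM, Scn2a was low and Scn7a high.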
